A study of Mus musculus with 5 samples.

Results

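The potassium channel genes described here are the 81 genes, of 18044 in the deposited table, whose symbol begins with Kcn, without the ATP-sensitive and renal outer medullary inward rectifier genes Kcnj1, Kcnj8 and Kcnj11. They were chosen by symbol alone and cover pore-forming subunits, accessory subunits and a pair of transcripts antisense to channel genes. RNA came from C57BL/6 mouse embryos at E18.5, late in gestation. The pelvis-kidney junction, where the renal pelvis joins the kidney, was cut out of all embryos, and the tissue was pooled and dispersed with collagenase. Cells were stained with an antibody against HCN3, a hyperpolarization-activated cation channel, and sorted by flow cytometry into an HCN3-positive and an HCN3-negative fraction. Both fractions share strain, age, tissue, digestion and staining, and no allele, transgene or drug is named for either. The series holds 2 libraries titled HCN3-positive (1 and 2) and 3 titled HCN3-negative (1, 2 and 3), and its design asks what sets HCN3-positive cells, taken as pacemaker cells of the urinary tract, apart from the others.

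Potassium channels let potassium leave the cell down its gradient, which pulls the membrane voltage down and ends or prevents firing. In smooth muscle of the urinary tract, large-conductance calcium-activated, voltage-gated and leak channels damp the contractions that pacemaker cells set off. In kidney tubules, inward rectifiers and leak channels of the basolateral membrane recycle potassium for the sodium pump. In macrophages, leak channels and the voltage-gated channel of Kcna3 hold the membrane voltage and carry the potassium efflux that goes with inflammasome activation.

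The fold change in the deposited table divides the libraries otherwise than the titles do. In all 18047 rows it equals the mean of HCN3-positive 2, HCN3-negative 1 and HCN3-negative 3 over the mean of HCN3-positive 1 and HCN3-negative 2, within a relative tolerance of 0.01. The best of the other divisions matched 9.38% of the rows. HCN3-positive 1 and HCN3-negative 2 are called the first set below and the remaining 3 libraries the second set, because the table does not say which side is HCN3-positive. Macrophage marker genes, 11 of 12 listed being in the table, summed to normalized counts of 325864 and 478718 in the first set and to 838 to 1649 in the second. Fibroblast and stromal markers (8 genes) summed to 9291 and 9899 in the first set and 83929 to 178469 in the second, and smooth muscle markers (8 genes) to 4425 and 6425 against 24368 to 131143. Hcn3 itself had 0 reads in HCN3-positive 1 and normalized counts of 44.5 in HCN3-positive 2 and 103, 32.2 and 41.9 in HCN3-negative 1, 2 and 3. Whether titles or columns were exchanged was not tested, and every value given by label rests on the titles as deposited. Calls and medians over all tested genes are therefore given by label and by set, and fold changes of single genes are by set unless the label is named. Per-set values are listed in the order HCN3-positive 1, HCN3-negative 2 for the first set and HCN3-positive 2, HCN3-negative 1, HCN3-negative 3 for the second.

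Values are normalized counts: the authors divided each library's reads by its own size factor. Between 24588864 and 39034478 reads fell in genes, and between 14103 and 23700 of them in the 81 potassium channel genes. Those genes took 0.0586% and 0.0581% of the gene reads in HCN3-positive 1 and 2 and 0.0725%, 0.0438% and 0.0583% in HCN3-negative 1, 2 and 3. The first set read fewer of them: 53 and 62 had at least 1 read there, against 78, 71 and 74 in the second set. Of all 18044 genes, 15667 and 16624 were read in the first set, against 17538, 16675 and 17241 in the second. HCN3-positive 1 also had the fewest gene reads. In all, 46 of the 81 genes were read in every library. Another 14 had 0 reads in both libraries of the first set, while 0 had no read throughout the second set. The second set holds 3 libraries against 2, so those counts are not like for like. Of the 81 genes, 69 had a mean of at least 5 and were tested, and the highest mean among the other 12 was 4.10. Among those 12 were Kcna7, Kcnc4, Kcnd3os, Kcne2, Kcng4, Kcnj4, Kcnk4, Kcnk9, Kcnmb3 and Kcnv2. Chemistry that keeps strand is not stated for the libraries, and 27 of the 81 genes have exons that overlap another gene, so their reads are uncertain to that extent.

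**Figure D1:**
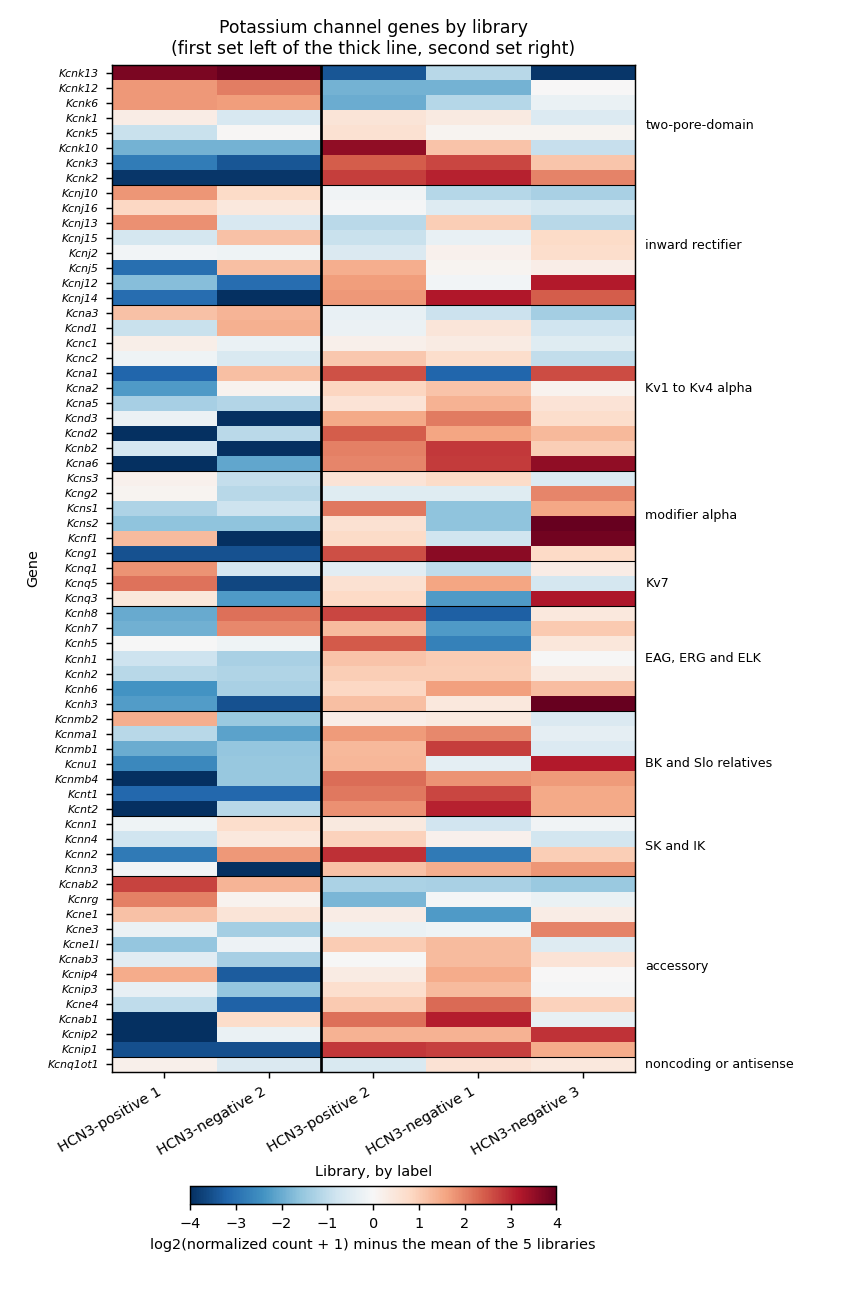
Level of 67 tested potassium channel genes (rows, grouped by channel class) in each of the 5 libraries (columns), as log2(normalized count + 1) minus the gene's mean. Red marks values above it and blue values below it, and most rows are blue in HCN3-positive 1 and HCN3-negative 2 (54 of 69 tested genes had a log2 fold change below 0 between the sets).

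Per kilobase of exon, tandem pore and inward rectifier genes led. The mean over the 5 libraries, in normalized counts per kilobase, was 594 for Kcnk1, 411 for Kcnk6 and 368 for Kcnj16, followed by 248 for the accessory gene Kcne4 and 230 for Kcnk5. The order differed between libraries. Kcnk6 was first in HCN3-positive 1 (854) and HCN3-negative 2 (809), and Kcnk1 was first in HCN3-positive 2 (809), HCN3-negative 1 (722) and HCN3-negative 3 (385). Tandem pore genes made up 29.98% and 38.4% of the potassium channel reads in the first set and 21.5%, 15.9% and 15.0% in the second. Kcnk6 alone took 17.5% and 21.5% against 1.57%, 2.24% and 4.86%. Kcnk13 took 2.81% and 6.79% against 0.0176%, 0.0886% and 0.0103%. The shares of the class's other abundant genes overlapped between the sets: Kcnk1 took 7.63% and 5.13% against 10.7%, 7.65% and 4.75%. Kcnk5 took 1.99% and 4.91% against 6.79%, 3.82% and 4.42%. Genes of the large-conductance channels and their relatives made up 1.11% and 0.681% in the first set against 6.56%, 8.01% and 2.59% in the second. Each of these class shares lay on opposite sides for the sets and overlapped between the labels.

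Upstream sequence is shown for Kcnk13 and Kcnj10, which were higher in the first set, and for Kcnk2, which had 0 reads there. For these 3 called genes the RefSeq window ends just before the annotated gene model, so it lies in none of that gene's annotated exons. Each line is the 200 bases before the start, 5′ to 3′ on the gene's strand, from the RefSeq promoter table on GRCm38.p6. Capitals mark GGAA on either strand (read as TTCC on the other), the core that ETS factors, among them the myeloid factor PU.1, bind.
Kcnk13, chr12:99964299-99964498, plus strand: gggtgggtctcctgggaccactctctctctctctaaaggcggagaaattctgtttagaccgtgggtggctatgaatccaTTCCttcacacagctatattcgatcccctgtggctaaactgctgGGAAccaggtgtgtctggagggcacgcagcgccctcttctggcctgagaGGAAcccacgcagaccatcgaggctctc
Kcnj10, chr1:172341010-172341209, plus strand: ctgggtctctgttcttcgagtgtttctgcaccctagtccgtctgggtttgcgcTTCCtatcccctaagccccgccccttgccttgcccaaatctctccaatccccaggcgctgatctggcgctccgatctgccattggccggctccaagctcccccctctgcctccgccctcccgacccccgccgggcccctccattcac
Kcnk2, chr1:189402274-189402473, minus strand: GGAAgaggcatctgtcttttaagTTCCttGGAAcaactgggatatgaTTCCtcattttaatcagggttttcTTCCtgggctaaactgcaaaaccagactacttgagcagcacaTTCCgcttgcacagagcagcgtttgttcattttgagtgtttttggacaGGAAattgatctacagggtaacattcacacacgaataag
The core stood 3 times before Kcnk13, 1 time before Kcnj10 and 7 times in the window shown for Kcnk2. The table lists a further 3 starts for Kcnk2, inside the gene model, whose windows held it 1, 2 and 6 times, so the genes cannot be ranked by this count. It stood at least once in 89.0% of the 32851 promoters of the table at the same length, with a median of 2, and in 85.4% of the 82 promoters listed for 58 of the potassium channel genes. The serum response element of smooth muscle genes (CArG box) stood in 1.184% of all these promoters and in 0 of the 82.

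By label, no potassium channel gene passed. Of 69 tested, 0 were higher and 0 lower in HCN3-positive libraries in limma at an adjusted p of 0.05, and the share called among all 16579 genes was 0% in both directions. At an unadjusted p under 0.05, 0 of the 69 and 157 of the 16579 (0.947%) were below the threshold. On the recovered reads edgeR and limma-voom also called 0 of the 69 (0% of all genes) and had 0 at an unadjusted p under 0.05, against 0.995% and 0.651% of all genes. DESeq2 called 0 of the 69, against 0.00603% of all genes higher and 0.0543% lower, and had 1, Kcnj15, at an unadjusted p under 0.05, against 2.8% of all genes. The log2 fold change was above 0 for 32 and below 0 for 37 of the 69, against 47.5% above and 52.5% below among all genes. Their median was -0.15, and that of all genes tested was -0.03.

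Each of the genes called between the sets had an adjusted limma p of 1.00 by label. Their log2 fold change, HCN3-positive over HCN3-negative, was for example 0.28 for Kcnk13, -0.21 for Kcnk6, 1.20 for Kcnab2, -0.95 for Kcnk2, -0.30 for Kcnk3 and -3.55 for Kcna6. By channel class the median by label ran from -0.86 for the BK channel and its relatives to 1.10 for Kv7.

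The median by label turned with the library left out. It was 0.87 without HCN3-positive 1, 0.15 without HCN3-negative 1 and 0.20 without HCN3-negative 3, against -0.96 without HCN3-positive 2 and -0.65 without HCN3-negative 2. With 2 libraries against 3 this comparison detects large changes only: of genes simulated with a 4-fold change limma found 1%, and of those with a 64-fold change 68%. No label states that replicate libraries stem from different pools of embryos, and the p-values therefore measure a spread that may be technical.

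Kcnj15, an inward rectifier of the proximal tubule's basolateral membrane, was the only tested gene of the 69 whose labelled groups did not overlap. Its normalized counts were 238 and 210 in HCN3-positive 1 and 2 and 320, 876 and 661 in HCN3-negative 1, 2 and 3. Both HCN3-positive libraries lay below all HCN3-negative ones. The log2 fold change was -1.35 (SE 0.57), with an unadjusted p of 0.0623 and an adjusted p of 1.00 in limma. The direction was the same with each library left out. Groups did not overlap in the lower direction in 5.44% of all genes tested and in the higher direction in 5.34%, against 1 and 0 of the 69. Proximal tubule markers (6 genes) summed to 3924 and 5821 in the HCN3-positive libraries and to 8933, 31669 and 16697 in the HCN3-negative ones, and their part in the value of Kcnj15 was not tested. Reads of Kcnj15 could include those of an overlapping predicted gene.

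Channels with known roles in smooth muscle firing overlapped between the labels. Kcnma1, the pore of the large-conductance calcium-activated (BK) channel, stood at 83.2 and 594 in the HCN3-positive libraries and at 692, 41.1 and 141 in the HCN3-negative ones. Kcnmb1, its smooth muscle beta subunit, stood at 16.9 and 173 against 476, 23.3 and 47.4. Kcnh2, the ERG channel, stood at 88.8 and 387 against 388, 84.3 and 247. For each of the 3, the widest gap within a label was larger than the gap between the labels' means. Kcnq5, a Kv7 channel of smooth muscle, stood at 178 and 59.3 against 118, 2.22 and 23.3. Kcnn4, the intermediate-conductance calcium-activated channel, stood at 164 and 541 against 327, 390 and 174, and the labels overlapped there too.

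**Figure D2:**
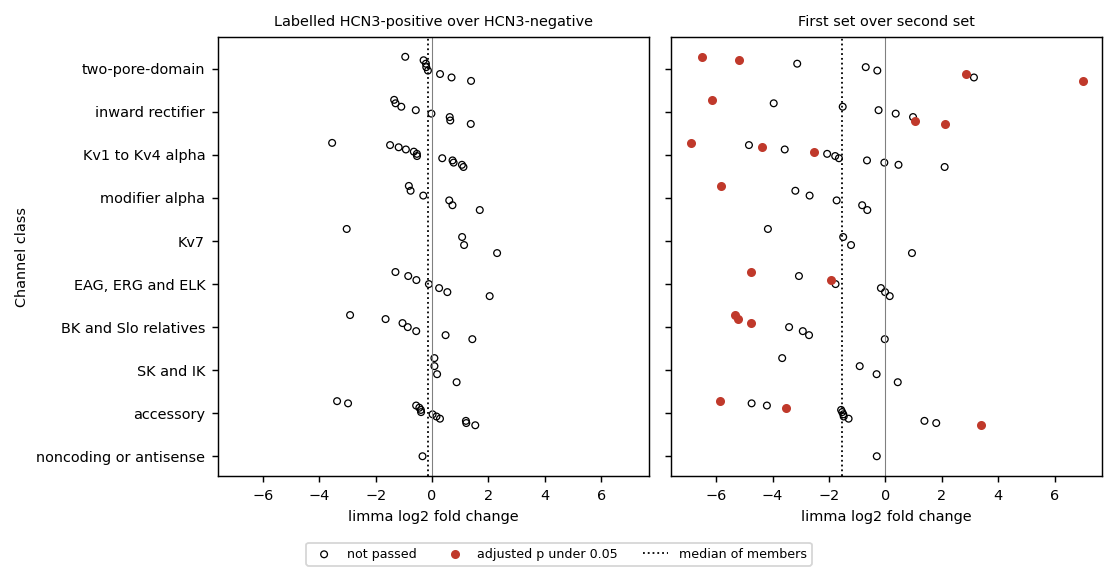
limma log2 fold change (horizontal axis) of the 69 tested potassium channel genes by channel class (vertical axis), HCN3-positive over HCN3-negative on the left and first over second set on the right. Filled points passed at an adjusted p of 0.05, and the dotted line is the median of the 69, at -0.15 on the left and -1.53 on the right.

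Between the sets of the deposited comparison, limma called 14 of 69 lower and 5 higher in the first set, which is 20.3% and 7.25%, where 9.88% and 10.6% of all genes tested were called. The 5 higher genes were Kcnk13, Kcnab2, Kcnk6, Kcnj10 and Kcnj16. The lower genes included Kcnk2, Kcnj14, Kcnk3, Kcnip1, Kcna6, Kcnt1, Kcng1, Kcne4, Kcnmb4, Kcnt2, Kcnh2, Kcnd2 and Kcnh3. The log2 fold change, first over second set, was above 0 for 15 and below 0 for 54 genes, against 46.5% and 53.5% of all genes. The median was -1.53 for the 69 and -0.07 for all genes tested.

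At an adjusted p of 0.05 the authors' deposited table had 4 of the 81 genes higher and 12 lower in the first set, where 8.1% and 6.09% of all genes were called. The table and limma shared 14 calls. Kcnb2 and Kcnd3 were called in the table alone, and Kcnt1, Kcnmb4, Kcnd2, Kcnj16 and Kcnh3 by limma alone. Apart from Kcnj16, those 5 are named here after their values were seen. The sets did not overlap for 9 genes in the higher direction and 30 in the lower, against 23.5% and 26.1% of all genes tested.

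The counts moved with single libraries. Without HCN3-positive 1, 0 were called higher and 10 lower. Without HCN3-positive 2 the counts were 4 and 4, without HCN3-negative 1 they were 3 and 7, without HCN3-negative 2 they were 2 and 13, and without HCN3-negative 3 they were 3 and 12. Kcnk2, Kcnj14 and Kcnk3 were called with each of the 5 libraries left out. On recovered reads limma-voom called 5 higher and 4 lower (10.6% and 5.13% of all genes), edgeR 4 and 10 (9.95% and 7.08%), and DESeq2 6 and 21 (13.6% and 13.7%). These are bulk libraries, so fewer cells of a type and less RNA per cell cannot be told apart. Macrophage markers (11 of 11 tested called higher), stromal markers (8 of 8 lower) and smooth muscle markers (8 of 8 lower) moved with the same division. So did endothelial markers (6 of 6 lower) and podocyte markers (5 of 6 lower). Glial markers were lower in 2 of 5 cases. Collecting duct markers were higher in 2 of 8, and those of Henle's loop with the distal tubule in 1 of 6. Urothelial, proximal tubule, erythroid and neuronal markers gave 0 calls. The part of any of these cells in the results below was not tested.

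**Figure D3:**
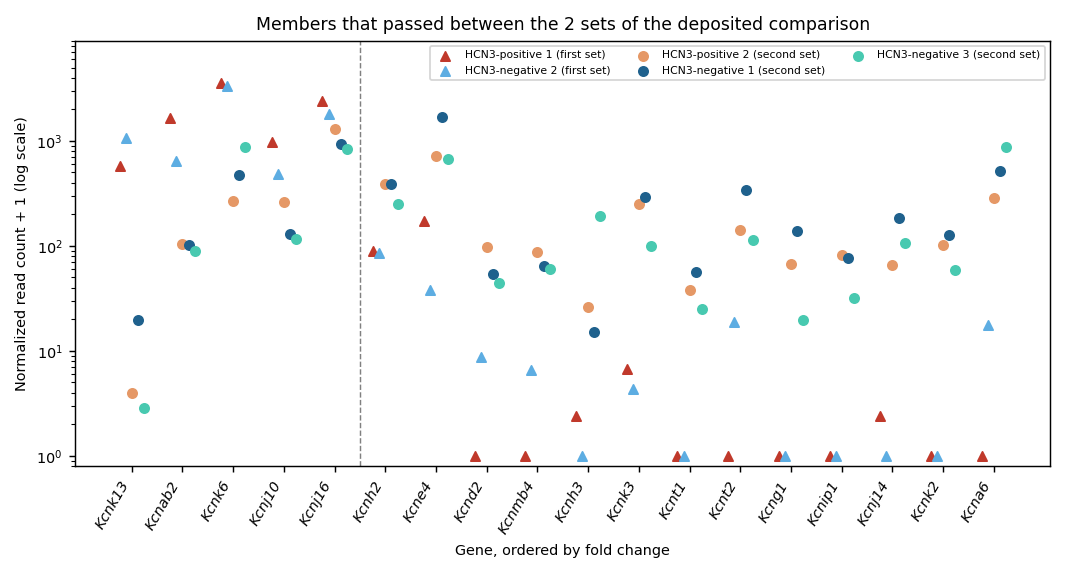
Vertical axis: normalized count + 1, on a log scale, of 18 of the 19 potassium channel genes that passed between the sets (horizontal axis, ordered by fold change), in each library. Triangles are the first set and circles the second, and the dashed line parts the 5 genes higher in the first set from the 13 lower in it that are shown.

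The tandem pore channels, which carry the background leak of potassium, held the highest and some of the lowest fold changes. Of 10 genes 8 were tested, 2 were higher and 2 lower in the first set, and their median log2 fold change was -0.49. Kcnk13 (chromosome 12, 99964499 to 100062682, plus strand; coordinates are those of mm10 in GENCODE vM21), a leak channel known from microglia, stood at 569 and 1062 in the first set and at 2.97, 18.7 and 1.86 in the second. Every first-set library was above every second-set library by more than an order of magnitude. The log2 fold change reached 7.0 (SE 1.04) at an adjusted limma p of 0.00508, which was 0.0518 without HCN3-positive 1. Kcnk6 (chromosome 7, 29221926 to 29232515, minus strand), a leak channel that carries potassium efflux in macrophages, stood at 3545 and 3359 against 265, 474 and 881. The sets did not overlap, and the first-set libraries differed little, with a mean of 3452 ± 131 (SD, n = 2) against 540 ± 313 (SD, n = 3). The log2 fold change of 2.84 (SE 0.48) had an adjusted limma p of 0.00826, which was 0.0976 without HCN3-positive 1 and 0.0647 without HCN3-negative 2.

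Kcnk2 and Kcnk3, leak channels gated by stretch and by acid, ran the other way. Kcnk2 (chromosome 1, 189207930 to 189402273, minus strand) had 0 reads in both libraries of the first set and normalized counts of 100, 125 and 57.7 in the second. Against a floor of 3 reads per library it was at least 24.9-fold lower in the first set, with an adjusted limma p of 0.00409. Kcnk3 (chromosome 5, 30588170 to 30625271, plus strand) stood at 5.64 and 3.33, from 4 and 3 reads, against 249, 290 and 99.5. It was near the floor in the first set, and its log2 fold change of -5.18 (SE 0.82) had an adjusted limma p of 0.00629 (0.0565 in limma-voom). The leak channel gene with the highest mean per kilobase did not divide the sets: Kcnk1 stood at 1549 and 802 against 1808, 1614 and 861, with a log2 fold change of -0.29 (SE 0.42). Kcnk5, an alkali-activated leak channel of the proximal tubule, stood at 405 and 768 against 1142, 807 and 801, and its log2 fold change of -0.70 (SE 0.37) did not pass (adjusted limma p 0.248). Kcnk10 had 0 reads in the first set and 41.5, 7.13 and 0.930 in the second, which did not pass either.

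Among the inward rectifiers, which pass potassium best near the resting voltage, the distal nephron pair was higher in the first set. Of 9 genes 8 were tested, 2 were higher and 1 lower, and the median log2 fold change was 0.06. Kcnj10 (chromosome 1, 172341210 to 172374085, plus strand) and Kcnj16 (chromosome 11, 110968033 to 111027968, plus strand) encode subunits that join in the basolateral membrane of the distal nephron. Kcnj10 stood at 975 and 485 in the first set and at 261, 130 and 116 in the second. Kcnj16 stood at 2374 and 1805 against 1293, 938 and 831. Neither gene overlapped between the sets, but the gap was narrower than for Kcnk13 and Kcnk6. The log2 fold change was 2.11 (SE 0.55) for Kcnj10 and 1.04 (SE 0.28) for Kcnj16, with adjusted limma p-values of 0.0377 and 0.0415.

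These 2 calls were the least stable of the higher ones. With 1 library left out at a time the adjusted limma p of Kcnj10 ran from 0.04995 to 0.218 and passed in 1 of 5 fits, and that of Kcnj16 ran from 0.0503 to 0.215 and passed in 0 of 5. Kcnj16 also did not pass in edgeR (adjusted p 0.0520). For both genes the p was highest without HCN3-positive 1 and next highest without HCN3-negative 1. Collecting duct markers (8 genes) summed to 69574 and 22312 in the first set and 20761, 13573 and 8670 in the second. Markers of the loop of Henle and distal tubule (6 genes) summed to 38016 and 19057 against 18902, 20846 and 15265. HCN3-positive 1 was highest for both sums, as for Kcnj10 and Kcnj16, and the part of these cells in the result was not tested.

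Kcnj14 (chromosome 7, 45816460 to 45824782, minus strand), a strong inward rectifier, was lower in the first set. It had 1 read in HCN3-positive 1 and 0 in HCN3-negative 2, and normalized counts of 65.3, 184 and 105 in the second set. The ratio of second to first set was 167 (95% counting interval 30.04 to 6612), with an adjusted limma p of 0.00595. Kcnj2, the classic strong inward rectifier of muscle, showed no such division, at 276 and 267 against 202, 336 and 490, with a log2 fold change of -0.24 (SE 0.49). Kcnj15 stood at 238 and 876 against 210, 320 and 661 and overlapped between the sets.

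The voltage-gated channels of the Kv1 to Kv4 families open on depolarization and repolarize the cell. Of 15 genes 12 were tested, 0 were higher and 3 lower in the first set, and the median log2 fold change was -1.92. Kcna6 (chromosome 6, 126708329 to 126740674, minus strand), a delayed rectifier of the Shaker family, stood at 0 and 16.6 in the first set and at 288, 511 and 865 in the second. The second set lay far above, and the log2 fold change of -6.91 (SE 1.25) had an adjusted limma p of 0.0103. It was 0.0574 without HCN3-negative 1 and 0.0602 in limma-voom.

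The A-type channel gene Kcnd2 (chromosome 6, 21215503 to 21729805, plus strand) stood at 0 and 7.77 against 96.4, 53.5 and 43.7, with a log2 fold change of -4.39 (SE 1.17; adjusted limma p 0.0405). It passed in 1 of the 5 fits with a library left out, with adjusted limma p-values up to 0.154. Its adjusted p was 0.129 in edgeR, 0.1001 in limma-voom and 0.0509 in limma with a pseudocount of 0.5. Kcnb2 and Kcnd3 were called lower in the authors' deposited table but not in the main limma fit. They stood at 21.1 and 0 against 140, 247 and 68.8, and at 74.7 and 4.44 against 254, 374 and 145. Their adjusted p was 0.0205 and 0.0133 in the authors' deposited table and 0.0521 and 0.0727 in limma. Exons of Kcnd3 overlap those of its antisense partner Kcnd3os, so reads there may be counted for the wrong gene or for neither. Kcnd3os had 0 reads in the first set and at most 4.45 in the second. Kcna3, the channel of lymphocytes and macrophages, went the other way at 165 and 186 against 58.6, 39.2 and 27.9. Its sets did not overlap, yet the log2 fold change of 2.10 (SE 0.66) did not pass (adjusted limma p 0.0686). Kcnc2, a fast-gating Kv3 channel, stood at 175 and 127 against 412, 318 and 97.7, with overlapping sets.

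Modifier subunits do not open on their own and tune channels of the Kv2 family. Of 8 genes 6 were tested, 0 were higher and 1 lower, and the median log2 fold change was -2.21 (-2.06 with genes at 0 reads set to their bound). Kcng1 (chromosome 2, 168260117 to 168281736, minus strand) had 0 reads in the first set and normalized counts of 66.8, 138 and 18.6 in the second. It was at least 19.7-fold lower, with an adjusted limma p of 0.0142. It was 0.0764 without HCN3-positive 1, 0.0727 without HCN3-positive 2, 0.0525 without HCN3-negative 2 and 0.0850 in limma-voom. Kcns3 had the highest level per kilobase of the modifiers and stood at 341 and 155 against 441, 518 and 204, with overlapping sets. Kcng2 stood at 147 and 63.3 against 97.2, 97.1 and 530. Kcnf1 varied most within the sets, at 173 and 1.11 against 122, 41.0 and 1048, and HCN3-negative 3 was the highest library for both Kcng2 and Kcnf1. That library also had the highest podocyte marker sum (307419, against 6662 to 48978 in the others, 6 genes). Its sums were highest too for endothelial markers (71139, against 5224 to 34524, 6 genes) and erythroid markers (55001, against 91.6 to 3258, 5 genes). The same held for neuronal markers (385, against 69.1 to 219, 6 genes). The part of any of these cells in the values of Kcng2 and Kcnf1 was not tested.

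The Kv7 channels, slow channels that hold smooth muscle and epithelia near rest, gave no call. Of 5 genes 4 were tested, and the median log2 fold change was -1.36. Kcnq1, which works in epithelia and the heart with Kcne subunits, stood at 1558 and 285 in the first set and 335, 225 and 553 in the second. HCN3-positive 1 alone set it apart, with a log2 fold change of 0.94 (SE 0.75) that was -0.28 without that library. Exons of Kcnq1 overlap those of the long noncoding RNA Kcnq1ot1, which is transcribed across it. Reads there may be counted for the wrong gene or for neither. Kcnq5 stood at 178 and 2.22 against 59.3, 118 and 23.3, and its direction differed between tools.

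EAG, ERG and ELK channels, named after fly mutants, share a voltage-gated core with slow or unusual gating. All 7 genes were tested, 0 were higher and 2 lower, and the median log2 fold change was -1.77. Kcnh2 (chromosome 5, 24319589 to 24351604, minus strand), the ERG channel that repolarizes the heart and also smooth muscle, stood at 88.8 and 84.3 in the first set and at 387, 388 and 247 in the second. The first-set libraries were close, at a mean of 86.6 ± 3.15 (SD, n = 2) against 341 ± 81.1 (SD, n = 3), and the log2 fold change of -1.94 (SE 0.48) had an adjusted limma p of 0.0321. With 1 library left out it ran from 0.0498 to 0.133 and passed only without HCN3-negative 3, and it was 0.0755 in limma-voom. Kcnh3 (chromosome 15, 99224861 to 99242817, plus strand), an ELK channel, had 1 read in HCN3-positive 1 and 0 in HCN3-negative 2, and stood at 25.2, 14.3 and 191 in the second set. The ratio of second to first set was 109 (95% counting interval 19.5 to 4300), with an adjusted limma p of 0.0484. It passed with 0 of the 5 libraries left out, and its adjusted p was 0.0721 in edgeR, 0.199 in limma-voom, 0.0818 in limma with a pseudocount of 5 and 0.0577 with a mean of at least 20. Kcnh1, the EAG channel, stood at 55.0 and 40.0 against 218, 201 and 96.7, which did not overlap but did not pass (adjusted limma p 0.108).

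Genes of the BK channel and of the related sodium-activated channels had the lowest class median, -3.42 (-3.36 with the gene at 0 reads set to its bound). Of 8 genes 7 were tested, 7 had a log2 fold change below 0, 3 were called lower and 0 higher in the first set. Kcnma1 stood at 83.2 and 41.1 in the first set and 594, 692 and 141 in the second, and Kcnmb1 at 16.9 and 23.3 against 173, 476 and 47.4. Neither overlapped between the sets and neither passed, with log2 fold changes of -2.71 (SE 0.81) and -2.93 (SE 1.03) and adjusted limma p-values of 0.0582 and 0.0935. Both passed without HCN3-negative 3, at 0.0176 and 0.0369. In that library the smooth muscle markers summed to 24368, against 95772 and 131143 in the rest of the second set, and their part in these values was not tested.

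The 3 called genes of this class each had 0 reads in HCN3-positive 1. Kcnmb4 (chromosome 10, 116417861 to 116473878, minus strand), a neuronal beta subunit, stood at 0 and 5.55 in the first set against 86.8, 63.3 and 59.5, with a log2 fold change of -4.77 (SE 1.08). Kcnt2 (chromosome 1, 140246158 to 140612067, plus strand), a sodium-activated channel, stood at 0 and 17.8 against 142, 336 and 113, with a log2 fold change of -5.35 (SE 1.33). Their adjusted limma p-values were 0.0229 and 0.0316, and each passed in 1 of the 5 fits with a library left out, that without HCN3-negative 2. On recovered reads neither passed, with adjusted p-values of 0.0796 and 0.0951 in edgeR and 0.0671 and 0.0854 in limma-voom. Kcnt1 (chromosome 2, 25863734 to 25918273, plus strand), the other sodium-activated channel, had 0 reads in the first set and stood at 37.1, 55.2 and 24.2 in the second. It was at least 10.3-fold lower, with an adjusted limma p of 0.0118, which was 0.0631 without HCN3-positive 2. Kcnmb2 was the exception in its class, at 125 and 15.5 against 54.2, 57.9 and 29.8, with a log2 fold change of -0.02 (SE 1.03).

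The small- and intermediate-conductance calcium-activated channels couple calcium rises to a fall in voltage, and 0 of 4 genes were called. Kcnn4 stood at 164 and 390 against 541, 327 and 174, and Kcnn1 at 171 and 313 against 251, 113 and 173. Both overlapped between the sets. Kcnn3 stood at 16.9 and 0 against 42.3, 52.6 and 65.1 without passing (adjusted limma p 0.102).

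Of 13 genes for accessory subunits and regulators 12 were tested, 1 was higher and 2 lower in the first set, and the median log2 fold change was -1.51. Kcnab2 (chromosome 4, 152390742 to 152477871, minus strand), a cytoplasmic beta subunit of Kv1 channels, stood at 1637 and 646 in the first set and at 104, 101 and 88.4 in the second. The second-set libraries lay within a narrow band below both, and the log2 fold change of 3.39 (SE 0.53) had an adjusted limma p of 0.00591, which was 0.0518 without HCN3-positive 1. Kcnab1, the other main beta subunit of this group, stood at 0 and 89.9 against 250, 481 and 43.7, so its sets overlapped. Kcne4 (chromosome 1, 78816758 to 78820028, plus strand), a membrane subunit that restrains Kv channels, stood at 172 and 36.6 against 721, 1699 and 665. Its sets were well apart, with a log2 fold change of -3.53 (SE 0.74; adjusted limma p 0.0181). That p was 0.0606 without HCN3-positive 2, 0.0844 without HCN3-negative 1, 0.0740 without HCN3-negative 2 and 0.0553 in limma-voom. Kcnip1 (chromosome 11, 33629339 to 33993152, minus strand), a calcium-binding partner of Kv4 channels, had 0 reads in the first set and stood at 80.9, 74.8 and 30.7 in the second. It was at least 16.4-fold lower, with an adjusted limma p of 0.00778, which was 0.0512 without HCN3-positive 2.

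Other Kcne genes did not pass between the sets. Kcne1l stood at 74.7 and 191 against 449, 537 and 155. Kcne3, which keeps epithelial Kcnq1 channels open, stood at 130 and 58.8 against 127, 135 and 600. Kcne1, the Kcnq1 partner of the heart and inner ear, stood at 114 and 72.1 against 62.3, 9.80 and 62.3, and its sets did not overlap, with a log2 fold change of 1.39 (SE 1.00). The noncoding RNA Kcnq1ot1, which silences imprinted neighbours, had the most reads of the 81 when summed over the libraries, at 3878 and 2262 against 2196, 4972 and 4485, spread over 93.1 kilobases of annotated exon, and did not pass (log2 fold change -0.30, SE 0.41).

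Among the genes not described above, Kcna5, Kcnj12 and Kcnip2 came close to the threshold between the sets, and their sets did not overlap. Kcna5, a Kv1 channel of vascular smooth muscle and the heart, stood at 43.7 and 48.8 in the first set and at 161, 291 and 162 in the second (adjusted limma p 0.0511). Kcnj12, a strong inward rectifier of muscle, stood at 9.87 and 3.33 against 113, 32.1 and 321 (adjusted limma p 0.0514). Kcnip2, a Kv4 partner that shapes the transient outward current of the heart, stood at 0 and 35.5 against 113, 114 and 322 (adjusted limma p 0.0711). All 3 were lower in each first-set library than in each second-set library, and none passed in the main limma fit. Kcnk12, the closest relative of Kcnk13, stood at 11.3 and 14.4 against 0, 0 and 2.79, from 8 and 13 reads in the first set, and its log2 fold change of 3.14 (SE 1.19) did not pass (adjusted limma p 0.117). Kcnj5, a rectifier opened by G proteins, stood at 19.7 and 381 against 456, 178 and 199, so the libraries of the first set differed more from each other than the sets did. Kcnrg, a regulator of Kv1 assembly, stood at 121 and 32.2 against 7.42, 27.6 and 24.2, and its log2 fold change of 1.8 (SE 1.01) did not pass (adjusted limma p 0.269).

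**Figure D4:**
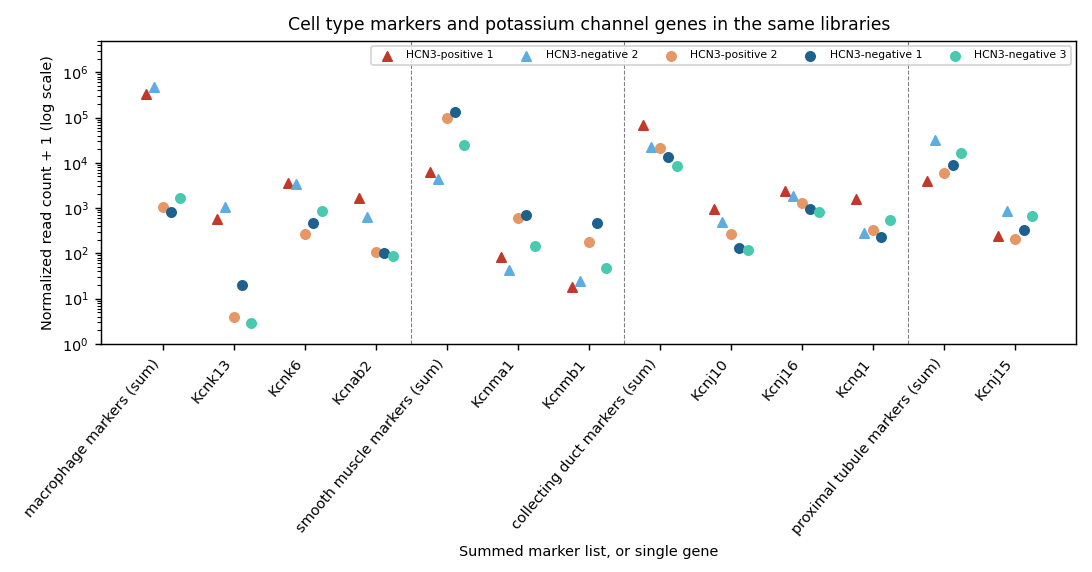
Vertical axis, on a log scale: the summed normalized count of a marker list or that of a single potassium channel gene, plus 1, with lists and genes along the horizontal axis and triangles for the first set, circles for the second. The first set is above the second for macrophage markers, Kcnk13, Kcnk6 and Kcnab2 and below it for smooth muscle markers, Kcnma1 and Kcnmb1, while Kcnj15 and Kcnq1 overlap between the sets.

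A list of genes that keep the potassium gradient or partner the channels was set beside them. Of 27 genes 24 were tested, and 0 were called by label (0% of all genes). Between the sets 5 were higher and 5 lower in the first set, where 10.6% and 9.88% of all genes tested were called. The median log2 fold change was 0.43, against -0.07 for all genes. The higher genes included the sodium pump subunit Atp1b3 (log2 fold change 0.85, SE 0.22), the pump regulator Fxyd5 (3.08, SE 0.36) and the kinase Wnk1 (1.04, SE 0.25). The lower genes included the Kv4 partner Dpp6 (-6.30, SE 1.05), the pump subunit Atp1b2 (-3.19, SE 0.46), the muscle pump regulator Fxyd1 (-4.04, SE 0.72) and the cotransporter Slc12a4 (-1.52, SE 0.34). Fxyd5 stood at 9371 and 5417 in the first set and 615, 812 and 1198 in the second. Dpp6, which joins the same channel complexes as Kcnip1 and Kcnd2, stood at 1.41 and 4.44 against 458, 595 and 84.6.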

How the data were processed

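RNA was sequenced from 5 libraries of sorted embryonic mouse cells, 2 titled HCN3-positive and 3 titled HCN3-negative. A Qiagen micro kit served for RNA extraction, and cDNA and libraries were made with Clontech and Nextera XT kits, per the labels' protocols. Per the submitters' processing notes, the steps used mm10, TopHat2 2.0.11, HTSeq 0.6.1p2 and DESeq 1.18.0, after bcl2fastq 2.17, Trim Galore 0.40 with cutadapt 1.8, and FastQC 0.11.2. The annotation behind the counts is not given there.

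For each library the authors deposited a signal column of read counts divided by 1 size factor, which came out as whole reads for 100% of values within a tolerance of 0.01. Per the file headers the table also holds the means of a pair of unnamed groups (not used here), their fold as a ratio, the log2 of that, and p-values of the authors before and after adjustment. The 3 summary rows of the read counter entered no library size or test.

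The main test was limma 3.58.1 (trend, R 4.3.3) on log2(normalized count + 1) over the 16579 genes whose mean reached 5. P-values were adjusted over all of them by the Benjamini-Hochberg method, and the threshold was 0.05. The added 1 shrinks the fold changes of low genes. A library with 0 reads can instead enlarge them, since logarithms are averaged. For Kcna6, with 0 reads in HCN3-positive 1, the limma log2 fold change, first over second set, was -6.91. The log2 ratio of the means in the authors' deposited table, second over first set, was 6.06. The fit was run by title and by the sets that the deposited fold compares. Alternatives on recovered reads were limma-voom, DESeq2 1.42.0 and the quasi-likelihood test of edgeR 4.0.16. Further ones were TMM scaling, pseudocounts of 0.5 and 5, no filter, a mean of at least 20, each library left out and a replicate block. The fit was tested on simulated data, where the set comparison found 53% of the genes given a 4-fold and 94% of those given a 64-fold change.

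A floor of 3 reads stood in for 0 reads and corresponds to normalized counts of 4.23, 2.23, 2.67, 3.33 and 2.79 in HCN3-positive 1 and 2 and HCN3-negative 1, 2 and 3. Floors and intervals cover counting error only, since PCR copies without molecular identifiers are not independent. Levels per kilobase use the merged exons of GENCODE vM21, which held all 81 genes. No pair of libraries agreed within sampling noise.

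The members, the marker and partner lists and the tests were chosen with earlier results of these data known. Values per library are given for genes that passed by label or in the authors' deposited table, genes whose labelled groups did not overlap, the 2 highest genes per kilobase in each class, and 16 genes fixed by known role. Values of some of these genes are not reported here, in the text or in figures that name genes, though all 81 enter the counts and medians. Kcnt1, Kcnmb4, Kcnd2, Kcnh3, Kcnk5, Kcnk10, Kcnc2, Kcnf1, Kcnmb2, Kcnn3, Kcnab1, Kcne3, Kcna5, Kcnj12, Kcnip2, Kcnk12, Kcnj5 and Kcnrg were named after their values were seen.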

Additional observations from a re-analysis of the deposited data

How the results depend on the processing

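By label 0 of the 69 genes passed under each alternative run, while over all genes DESeq2 called 1 higher and 9 lower. Between the sets, limma-voom called 4 potassium channel genes lower in the first set, and 851 of all genes tested against 1638 in limma. With 1 library left out the potassium channel genes called higher ranged from 0 to 4 and those called lower from 4 to 13, and the corresponding counts over all genes from 678 to 1644 and from 563 to 1682. A fit that leaves an arm with 1 library assumes that it varies like the others. Without the ribosomal RNA gene Rn45s the potassium channel share was 0.0589% and 0.0595% in HCN3-positive 1 and 2. The direction of Kcnq5 between the sets turned in edgeR (0.42) and DESeq2 (0.43). It also turned with a library left out (log2 fold change from -4.11 to 1.68), as for Kcnn4 (-0.93 to 0.31), Kcnq1 (-0.28 to 2.166), Kcnj15 (-0.57 to 1.30), Kcnk1 (-0.76 to 0.19), Kcnq1ot1 (-0.69 to 0.0838) and Kcnj2 (-0.58 to 0.0620). The cause was not tested.

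Same-numbered libraries of the labels deviated in opposite ways (correlations of -0.53 and -0.69 across genes). By the rule used here they are not treated as pairs, though each numbered pair spans the sets of the deposited comparison, so these values do not settle whether the numbers pair the libraries. With the number as a replicate block 0 potassium channel genes and 0 of all genes were called, and the members' median by label was 0.20. With the numbers crossed, a pairing chosen after seeing the data, 0 potassium channel genes and 2 other genes (lower) were called.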
